A study of Sus scrofa with 24 samples.

Results

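Subcutaneous fat cells of the pig were compared between day 4 and day 8 of adipogenic culture. The members were the 3 libraries of day 4 (BF-4d) and the 3 libraries of day 8 (BF-8d), 6 of the 24 RNA libraries of the study, and were taken by their labelled depot and day. The cells were preadipocytes, the fibroblast-like precursors of fat cells, isolated from the back subcutaneous fat (BF) of 6-day-old Yorkshire piglets. Per the study's methods, the cells were induced for 2 days with IBMX (an inhibitor of cAMP breakdown), dexamethasone (a glucocorticoid) and insulin, kept for 2 more days in growth medium with insulin, and then fed with growth medium. By that schedule the cells of day 4 had been through induction and the insulin phase, and those of day 8 had in addition been in growth medium without the insulin supplement, so that time and the change of medium cannot be told apart. Cells of day 0 (BF-0d) were taken before induction and those of day 2 (BF-2d) after it. The same days of intramuscular cells from the longissimus dorsi muscle (IMF-4d and IMF-8d, 3 libraries each) were compared to test whether a change differed between the depots, and all 24 libraries of the study entered the model that estimated the spread of each gene. The study used 3 piglets, and the sources used here do not tie a replicate number to an animal, so that the p-values measure the spread between these libraries, which may be technical.

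Preadipocytes turn into fat cells by way of transcription factors such as PPARG and CEBPA, and then build the proteins that take up, make and store lipid and the hormones that fat secretes. Cells of the same fibroblast lineage can also mount a type I interferon response. In that response foreign or misplaced nucleic acid is sensed by RIGI, IFIH1 or TLR3, interferon beta is secreted, and its receptor acts through JAK kinases and factors such as STAT2 and IRF9 to switch on interferon-stimulated genes. Cholesterol is made from acetyl-CoA in a chain of enzymes that runs through HMGCS1, SQLE and CYP51A1, and the transcription factor SREBF2 raises these enzymes together when sterols in the cell are low.

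The measure was FPKM, a fragment count scaled to transcript length and library size, as the authors computed them, and the deposited table gives no read depth. Summed over genes, the 6 libraries held 316787 to 351974 FPKM, with 10311 to 10609 genes at 1 FPKM or more. The libraries of a day were not equally alike. Across genes, which are not independent replicates, BF-4d replicates 1 and 2 correlated at 0.991, but BF-4d replicate 3 correlated with them at 0.965 and 0.970 and with the BF-8d libraries at 0.958 to 0.977. BF-8d replicates 1 and 2 correlated at 0.969, below the 0.987 and 0.988 of the other day 8 pairs. BF-4d replicate 3 thus lay nearer to day 8 than its 2 replicates did, and the results below are given with and without it and the day 8 libraries where that mattered. The labels give no sequencing batch.

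A total of 16135 genes were tested on log2(FPKM + 1), and every fold change below is the day 8 mean minus the day 4 mean on that log2 scale, with its standard error (SE) and limma's adjusted p. A gene was called at an adjusted p under 0.01 and a log2 fold change of at least 1 in either direction. Of the tested genes, 472 (2.93%) were called, 288 of them higher on day 8 (1.78% of the tested genes) and 184 lower (1.14%). The counts of called list members below stand against these shares. Scaling the libraries by median ratios changed that split to 380 higher and 126 lower. The median over all tested genes was -0.05. The libraries of the days did not overlap for 5203 genes (32.2%) and for 426 of the called ones. The count rested on the spread shared with the other groups: with only the 12 BF libraries fitted, 101 genes (0.626%) were called, and with only the 6 compared libraries 4. It also moved with single libraries, with 832 calls when BF-4d replicate 3 was left out, 295 when BF-4d replicate 1 and 299 when BF-4d replicate 2 was. In all 6 fits that each left out 1 of the compared libraries (the leave-one-out fits), 212 genes (1.31%) were called, 131 higher and 81 lower. Of the called genes, 84 had no symbol, and 34 had been assembled by the authors outside the annotation.

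**Figure D1:**
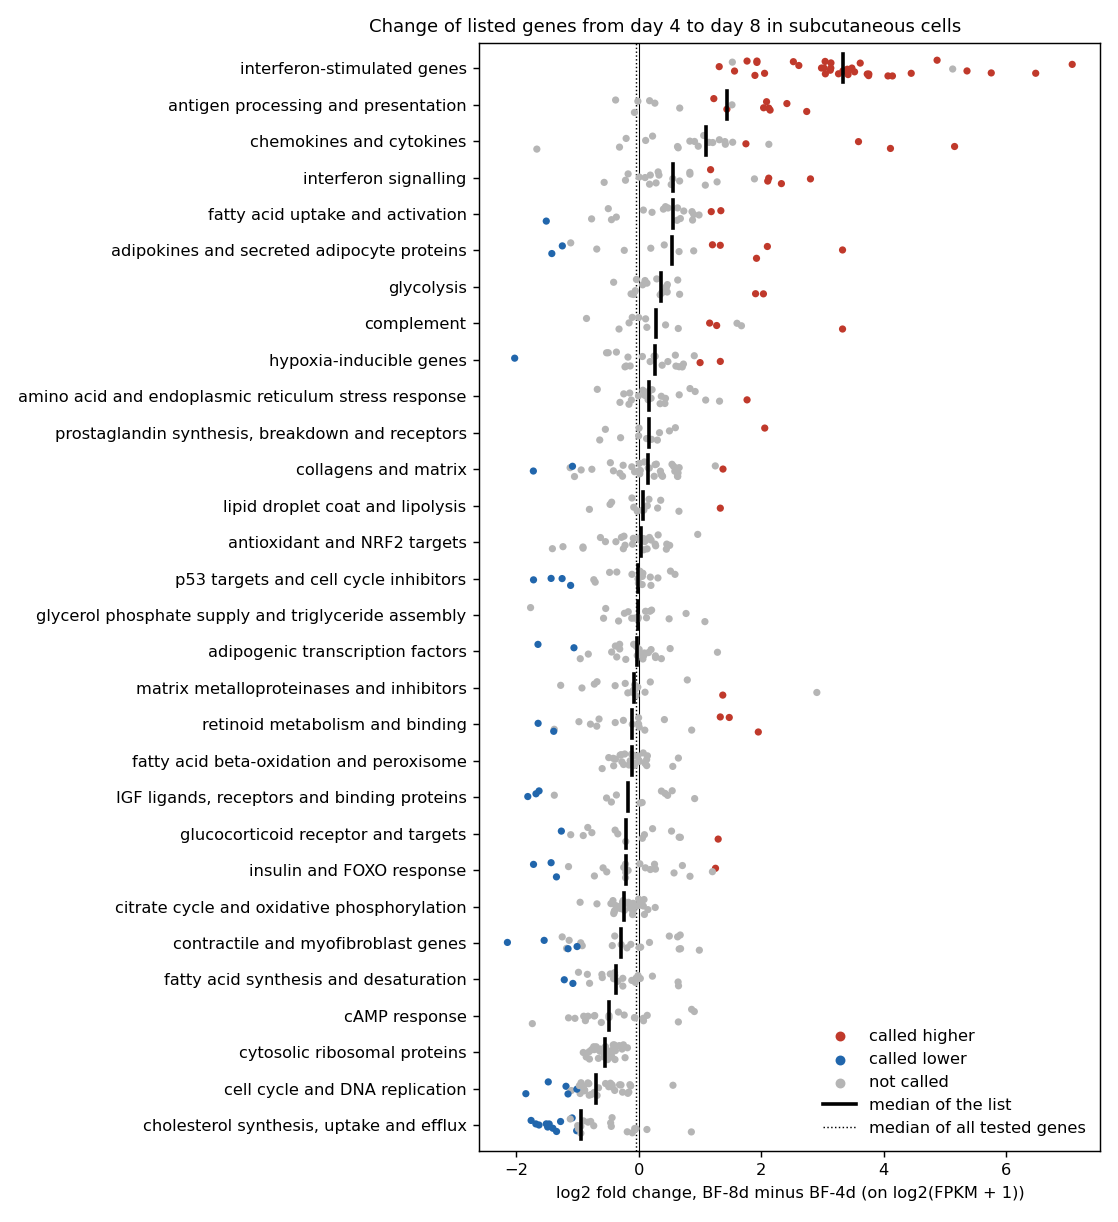
Change of the tested members of each gene list from BF-4d to BF-8d, with the log2 fold change of FPKM + 1 on the horizontal axis and one list per row, ordered by its median. Points are genes (red called higher, blue called lower, grey not called), black bars are list medians and the dotted line is the median of all tested genes (-0.05). The interferon-stimulated genes stand farthest to the right (median 3.34) and the genes of cholesterol synthesis, uptake and efflux farthest to the left (median -0.94).

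Interferon-stimulated genes held the largest rises. Of 37 tested members, 35 were called higher on day 8 and 0 lower, against 1.78% of all tested genes called higher, and their median log2 fold change was 3.34. The 2 members not called were RIGI and OASL, with log2 fold changes of 5.13 and 1.53. Many of these genes carry, just upstream of their start, the element read by the complex that holds IRF9, whose core is written here as GAAANNGAA. In the window from 250 bases before to 50 bases after the start of the RefSeq gene, searched on both strands, that core was found in 20 of the 34 members with a promoter in the pig assembly Sscrofa11.1 (58.8%) and in 1552 of all 19534 promoters (7.95%). A match is a description of the letters and not evidence of binding. For 3 members with a match, chosen as examples among the called ones, 60 bases around it are shown in the direction of the gene, with 1 match in capitals. The ISG15 stretch holds 4 matches, of which the others are left in lower case. In RSAD2 the core lies on the opposite strand, so that its reverse complement is seen.
ISG15 (chr6:63363064-63363123, plus strand): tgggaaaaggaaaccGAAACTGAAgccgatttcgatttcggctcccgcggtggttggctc
RSAD2 (chr3:128897894-128897953, minus strand): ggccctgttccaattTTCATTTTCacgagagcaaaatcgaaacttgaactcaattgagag
IFI44L (chr6:134679213-134679272, minus strand): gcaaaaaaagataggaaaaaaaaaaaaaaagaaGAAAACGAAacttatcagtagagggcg

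RSAD2, which encodes the antiviral enzyme viperin, had the largest rise of all tested genes. Its FPKM was 0.58, 0.252 and 1.92 in BF-4d replicates 1, 2 and 3 and 21.1, 1696 and 381 in BF-8d replicates 1, 2 and 3 (log2 fold change 7.08, SE 0.97, adjusted p = 7.32e-05). The days did not overlap, but day 8 replicate 2 lay far above replicate 1. IFIT1, which binds foreign RNA, had 0.643, 0.697 and 11.2 FPKM on day 4 and 38.6, 1290 and 476 on day 8 (6.48, SE 0.95, adjusted p = 0.000125). ISG15, a ubiquitin-like protein joined to other proteins, had 8.46, 5.76 and 62.2 on day 4 and 90.5, 2764 and 1111 on day 8 (5.36, SE 0.96, adjusted p = 0.000765). In both genes BF-4d replicate 3 was the highest of its day and BF-8d replicate 1 the lowest of its own.

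MX2, a dynamin-like antiviral GTPase, had 0.199, 0.117 and 2.40 FPKM on day 4 and 8.88, 497 and 146 on day 8 (5.76, SE 0.87, adjusted p = 0.000176). IFIT2, of the same family as IFIT1, had 0.203, 0.027 and 0.979 on day 4 and 4.12, 208 and 56.6 on day 8 (4.87, SE 0.80, adjusted p = 0.000354). OAS1, which makes the 2-5A signal that activates RNase L, was listed at 0, 0.174 and 2.68 on day 4 and had 3.98, 156 and 57.0 on day 8 (4.45, SE 0.78, adjusted p = 0.000621). The order of the day 8 libraries was the same in each of these genes, with replicate 2 highest and replicate 1 lowest. HERC5, the ligase that attaches ISG15, rose by 4.15 on the log2 scale (SE 0.74) and CMPK2, a nucleotide kinase next to RSAD2 on chromosome 3, by 4.07 (SE 0.69). IFI44, IFI44L and TRIM25, the last a ligase that acts on RIGI, rose by 3.42, 3.05 and 2.06. The genes MX1 and MX2, OAS1 and OAS2, IFIT1 and IFIT2, GBP1 and GBP2, and HERC5 and HERC6 are neighbouring members of families, and DTX3L and PARP9 overlap on the genome, so that fragments could have been shared between them in the counting and their single values are uncertain.

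The size of the rise differed between libraries of one day. All 37 members had their highest day 8 value in replicate 2 and their lowest in replicate 1, an order found in 20.8% of all tested genes. On day 4, replicate 3 was highest for 36 of the 37. Together these genes took 0.0444, 0.0297 and 0.122% of the FPKM in the 3 BF-4d libraries and 0.170, 3.42 and 1.47% in the 3 BF-8d libraries. Their mean log2(FPKM + 1) was 1.51, 1.33 and 2.51 on day 4 and 3.004, 6.92 and 5.71 on day 8. The libraries of BF-0d lay at 2.35 to 2.79 and those of BF-2d at 1.93 to 2.71, so that BF-8d replicate 1 stood little above the level of undifferentiated cells. Of the 37 members, 24 were called without BF-4d replicate 2 and 37 without BF-8d replicate 1. With BF-8d replicate 1 as the only day 8 library, a setting chosen after the values were seen, 3 were called and their median was 1.11. With only the 12 BF libraries fitted, RSAD2 alone of them was called.

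**Figure D2:**
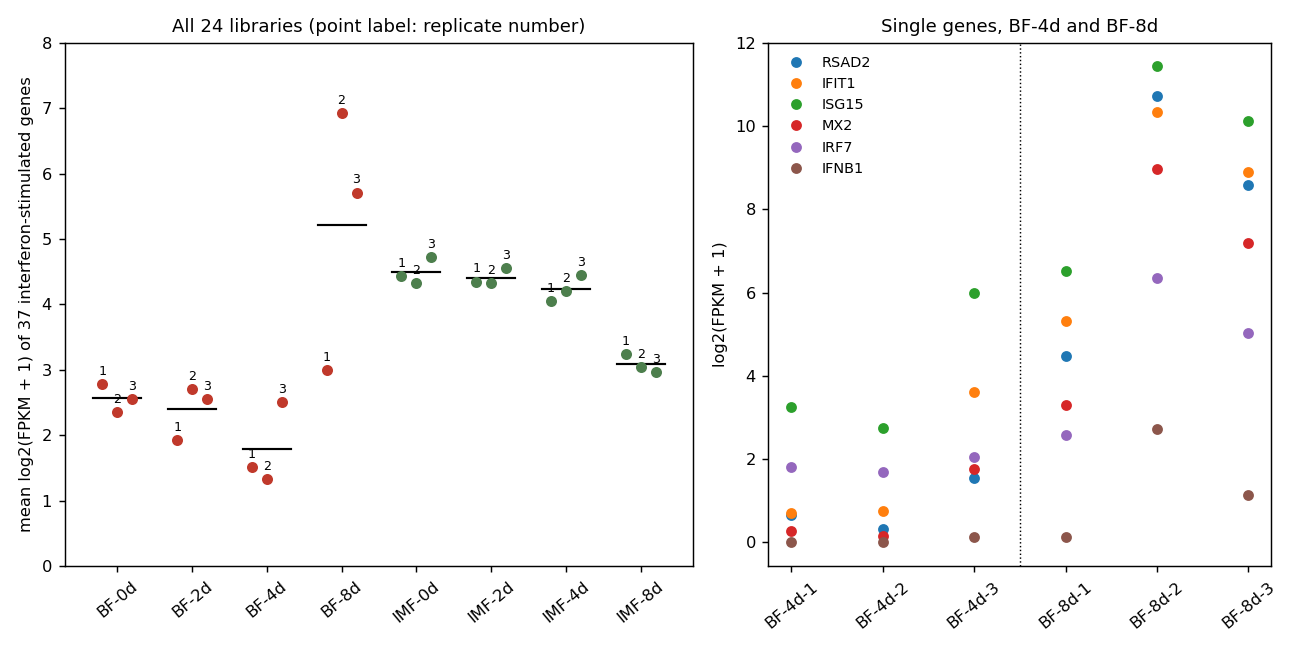
Left, mean log2(FPKM + 1) of 37 interferon-stimulated genes in each of the 24 libraries by depot and day, with the replicate number above each point and group means as bars. Right, log2(FPKM + 1) of 6 genes of the interferon response in the 6 compared libraries. BF-8d replicates 2 and 3 stand at 6.92 and 5.71, above each other library, and BF-8d replicate 1 at 3.004.

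Among the genes that sense nucleic acid and carry the interferon signal, 5 of 23 tested were called higher on day 8 and 0 lower (median 0.56). Over all tested genes, 1.78% were called higher. IRF7, which drives interferon alpha genes and is itself induced, had 2.49, 2.24 and 3.13 on day 4 and 5.003, 80.0 and 31.8 on day 8 (2.81, SE 0.55, adjusted p = 0.00154). The days did not overlap, and the call was kept without any single library. IRF1, the RNA sensor TLR3 and the kinase JAK2 rose by 2.11, 2.12 and 1.18. IRF1 lost its call in 4 of the 6 leave-one-out fits, without BF-4d replicates 1 or 2 or BF-8d replicates 2 or 3, with an adjusted p of up to 0.0317. TLR3 was called in 3 of these fits, and its highest adjusted p, 0.0108, came without BF-4d replicate 1. JAK2 lost its call without BF-4d replicate 1 (adjusted p = 0.015) and without BF-8d replicate 2, where its log2 fold change was 0.77.

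The count for the signalling genes was 2 without BF-4d replicate 1 or BF-8d replicate 2, 3 without BF-4d replicate 2, 7 without BF-4d replicate 3 and 9 without BF-8d replicate 1. None of the receptor subunits IFNAR1, IFNAR2, IFNGR1 and IFNGR2 was called. IFNAR1 had 26.8, 27.2 and 26.4 FPKM on day 4 and 28.6, 24.4 and 28.2 on day 8. The next 2 genes were named after their values were seen. IFNB1, which encodes interferon beta, was listed at 0, 0 and 0.0949 FPKM on day 4 and had 0.0854, 5.62 and 1.19 on day 8, and was not called (1.28, adjusted p = 0.0184). RIGI had 0.723, 0.0687 and 0.155 on day 4 and 0.609, 305 and 184 on day 8, and was not called either (5.13, adjusted p = 0.0185). Both genes were high in the same 2 day 8 libraries and overlapped with day 4 in BF-8d replicate 1.

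Genes of antigen processing and presentation on MHC class I had 8 of 15 tested members called higher and 0 lower (median 1.44). The share called higher was 1.78% over all tested genes. The subunits PSMB8 and PSMB9 replace standard ones in the immunoproteasome, and PSME2 is part of its activator. PSMB9 had 1.14, 0.767 and 2.44 FPKM on day 4 and 3.51, 46.1 and 17.5 on day 8 (2.75, SE 0.52, adjusted p = 0.0011). PSMB8 rose by 2.42 (SE 0.45) and PSME2 by 2.15 (SE 0.33), and all 3 were called without any single library. The peptide transporter subunits TAP1 and TAP2 and the trimming peptidase ERAP1 rose by 2.09, 2.04 and 1.44. TAP1 was called in 2 of the 6 leave-one-out fits and had 1.40 at its lowest, TAP2 lost its call without BF-4d replicate 2 (adjusted p = 0.0122), and ERAP1 was called in 3 (adjusted p = 0.014 without BF-8d replicate 2). TAP2, PSMB8, TAP1 and PSMB9 are 4 neighbouring genes on chromosome 7, with gaps of 1540, 1105 and 143 bases between them. The count of the list was 3 without BF-4d replicate 2 and 5 without BF-4d replicate 1, BF-8d replicate 2 or BF-8d replicate 3.

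Chemokines and cytokines had 4 of 22 tested members called higher and 0 lower (median 1.11), against 1.78% of all tested genes called higher. CSF2, the growth factor GM-CSF, had 0.689, 0.486 and 33.6 FPKM on day 4 and 51.1, 115 and 73.2 on day 8 (4.11, SE 0.70, adjusted p = 0.000511). CCL5, which attracts T cells, had 8.87, 10.1 and 56.3 on day 4 and 139, 345 and 227 on day 8 (3.59, SE 0.61, adjusted p = 0.000511). In both genes BF-4d replicate 3 was far above its replicates and still below each day 8 library. CXCL10, an interferon-induced chemokine, had 0.395, 0.466 and 4.29 on day 4 and 7.86, 580 and 95.0 on day 8 (5.16, SE 1.03, adjusted p = 0.00182) and lost its call without BF-4d replicate 1 (adjusted p = 0.0124), BF-4d replicate 2 or BF-8d replicate 2. CCL4 had 0, 0.0271 and 0.322 on day 4 and 0.768, 7.10 and 2.63 on day 8, with a log2 fold change of 1.75 (SE 0.30) that ranged from 1.19 to 2.29 when a library was left out. The most abundant members of the list, CXCL8 and IL6, were not called. CXCL8, which attracts neutrophils, had 543, 527 and 8229 on day 4 and 2666, 4991 and 4328 on day 8, so that its highest value was in BF-4d replicate 3. Without that library 9 members of the list were called, and without BF-8d replicate 1 there were 8.

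Of the 288 genes called higher, 48 were in the lists of interferon-stimulated genes, interferon signalling and antigen presentation and 240 were not. The day 8 order of the interferon-stimulated genes (replicate 2 above 3 above 1) was seen in 197 of the 288 (68.4%, against 20.8% of all tested genes). BF-4d replicate 3 was the highest day 4 library for 215 of the 288 (74.7%, against 39.4%) and the lowest for 139 of the 184 genes called lower (75.5%, against 38.6%). The part of that library's position in the calls was not tested beyond leaving it out.

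Most genes of cholesterol synthesis, uptake and efflux were lower on day 8, while 2 had a positive log2 fold change. Of 29 tested members, 11 were called lower and 0 higher, against 1.14% of all tested genes called lower, with a median of -0.94. The libraries of the days did not overlap for 24 of the 29 (32.2% of all tested genes). CYP51A1, the lanosterol demethylase, had 20.8, 26.9 and 32.7 FPKM on day 4 and 9.19, 5.14 and 7.52 on day 8 (log2 fold change -1.76, SE 0.16, adjusted p = 5e-07). SQLE, the squalene epoxidase, had 6.82, 9.13 and 11.7 on day 4 and 2.43, 2.06 and 1.93 on day 8 (-1.68, SE 0.20, adjusted p = 1.27e-05). IDI1, which isomerises the isoprenoid building block, had 11.5, 11.4 and 13.5 on day 4 and 4.10, 2.40 and 3.40 on day 8 (-1.63, SE 0.16, adjusted p = 1.33e-06). In these 3 genes each day 8 library lay below each day 4 library, with day 4 replicate 3 the highest.

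HSD17B7, a ketoreductase of the later steps, fell by 1.49 on the log2 scale, HMGCS1, the first committed step, by 1.34, and MSMO1, the methyl sterol oxidase, by 1.09. SC5D, a desaturase of the later steps, and FDPS, the farnesyl diphosphate synthase, had log2 fold changes of -1.40 and -1.01. The regulator SREBF2 had a log2 fold change of -0.73, under the threshold of size, although its adjusted p was 0.00364. ABCA1, which exports cholesterol, had 13.1, 11.98 and 21.4 on day 4 and 23.4, 34.3 and 27.5 on day 8, higher on day 8 in each library and not called (0.86, adjusted p = 0.0186).

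Between 10 and 14 members of the list were called when any single library was left out, and 7 with BF-8d replicate 1 as the only day 8 library. With only the 12 BF libraries fitted, 6 were called: CYP51A1, SQLE, IDI1, HSD17B7, HMGCS1 and MSMO1. MSMO1 lost its call without BF-4d replicate 3 (-0.91). Of the genes of fatty acid synthesis and desaturation, 2 of 22 were called lower and 0 higher (median -0.36). The desaturases FADS2 and FADS1 fell by 1.21 and 1.07 on the log2 scale. FADS2 had 0.89 as its smallest fall, without BF-8d replicate 2, where the call was lost, and FADS1 was called in 4 of the 6 fits (-0.80 without BF-8d replicate 2). FASN, the fatty acid synthase, had 43.4, 49.4 and 51.8 FPKM on day 4 and 29.3, 26.1 and 26.2 on day 8, a difference of -0.80 that was under the threshold of size.

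**Figure D3:**
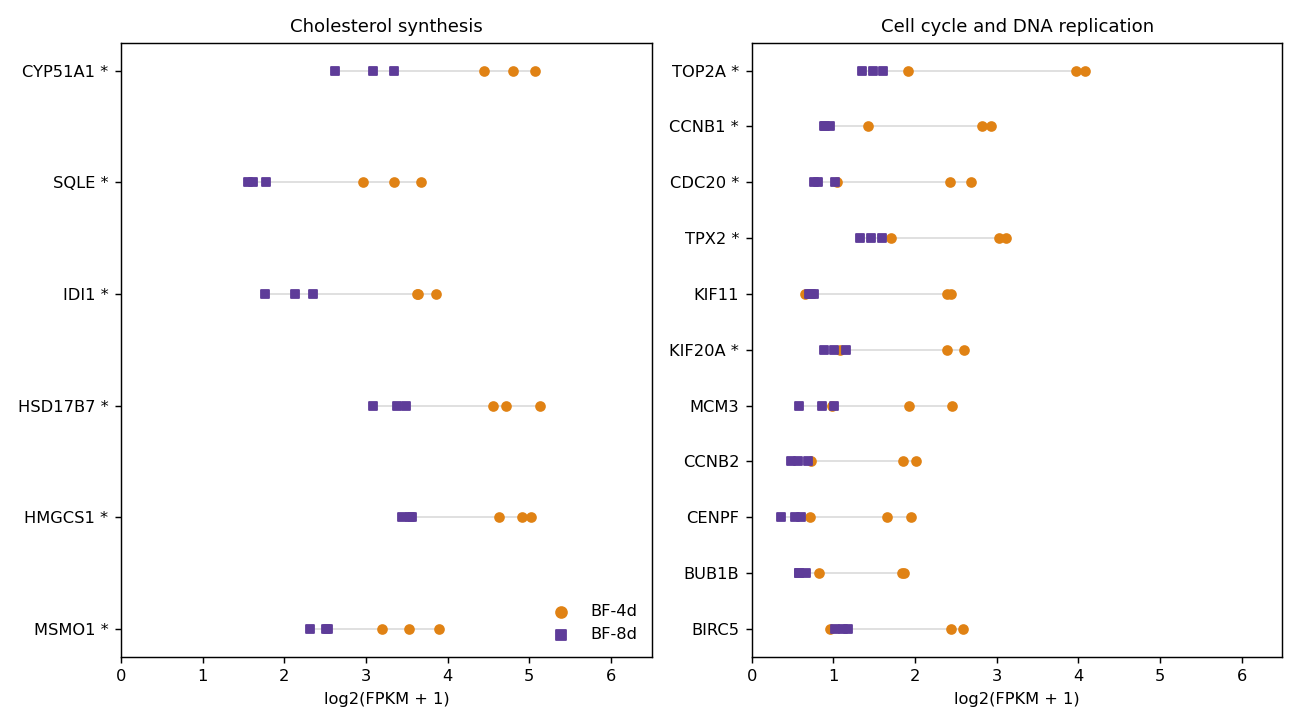
FPKM as log2(FPKM + 1) in BF-4d (orange circles, 3 libraries) and BF-8d (purple squares, 3 libraries) for the 6 genes of cholesterol synthesis that were called also with only the 12 BF libraries (left) and the 11 cell cycle genes with the most negative fold changes (right); an asterisk marks a called gene. The 6 sterol genes separate the days in all libraries, whereas in the cell cycle genes BF-4d replicate 3 lies near the day 8 libraries.

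Cell cycle and DNA replication genes had 5 of 34 tested members called lower and 0 higher (median -0.70). The share called lower was 1.14% over all tested genes. CCNB1, the cyclin of mitotic entry, had 6.04, 6.59 and 1.69 FPKM on day 4 and 0.846, 0.940 and 0.868 on day 8 (-1.48, SE 0.23, adjusted p = 0.000221). TOP2A, the topoisomerase of dividing cells, had 15.9, 14.7 and 2.76 on day 4 and 1.55, 2.04 and 1.79 on day 8 (-1.84, SE 0.39, adjusted p = 0.00242). The levels of BF-4d replicate 3 lay between the other day 4 libraries and day 8. Leaving that library out raised the count to 16, while it was 1 without BF-4d replicate 1, BF-4d replicate 2 or BF-8d replicate 3, and 3 without BF-8d replicate 1 or 2. CCNB1 was called in each of these fits, whereas TOP2A and the spindle protein TPX2 were called in 3 of 6, and CDC20 and KIF20A, which act in late mitosis, in 1. The lowest log2 size was 0.87 for CDC20 and 0.72 for KIF20A, both without BF-4d replicate 1. With only the 12 BF libraries fitted, 0 members were called. The mean log2(FPKM + 1) of the list was 2.46, 2.30 and 1.502 on day 4 and 1.41, 1.43 and 1.44 on day 8. The letters TTTGAAA, part of an element of cell cycle promoters, stood in the promoter window of 8 of 33 members (24.2%) and of 1127 of all 19534 (5.77%).

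Among p53 targets and cell cycle inhibitors, 4 of 21 were called lower and 0 higher (median -0.003), against 1.14% of all tested genes called lower. GADD45A, a stress-induced growth arrest gene, had 11.7, 13.2 and 12.8 FPKM on day 4 and 5.02, 1.68 and 3.35 on day 8 (-1.72, SE 0.22, adjusted p = 3.26e-05). CDKN1B, an inhibitor of cyclin-dependent kinases, had 37.6, 34.4 and 37.3 on day 4 and 13.3, 14.5 and 16.6 on day 8 (-1.25, SE 0.18, adjusted p = 8.96e-05). SESN1 fell by 1.43 and the kinase inhibitor CDKN2C by 1.11 on the log2 scale, and CDKN2C lost its call without BF-4d replicate 1 (-0.87). The levels of CDKN1A, the most abundant member, were 206, 244 and 355 on day 4 and 465, 332 and 398 on day 8 and it was not called (0.59, adjusted p = 0.0127). Cytosolic ribosomal protein genes had 0 of 32 members called, with a negative log2 fold change in each of the 32 and a median of -0.54. Without BF-4d replicate 3, 4 were called and the median was -0.71. The mean log2(FPKM + 1) of these genes was 8.77 in that library, against 9.4 and 9.42 in the other day 4 libraries and 8.63 to 8.68 on day 8. Of these, RPLP0 had 3444, 3537 and 2448 on day 4 and 1737, 1834 and 1764 on day 8 (-0.80), under the threshold of size.

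Transcripts of several proteins that define the mature fat cell were near absent on both days, while others were abundant. ADIPOQ (adiponectin) reached at most 0.23 FPKM and PLIN1 (perilipin 1) at most 0.0773 in the 6 libraries, both too low to be tested, and LEP and RETN were listed at 0. PPARG had 2.17, 0.919 and 1.64 FPKM on day 4 and 1.28, 0.486 and 1.16 on day 8 (-0.38, adjusted p = 0.409), and CEBPA 7.27, 2.86 and 1.92 against 2.55, 2.21 and 2.27 (-0.44, adjusted p = 0.205). Others of the 16 adipocyte markers in the table were high: LPL had 176 to 611 and CFD 16.3 to 337, and PNPLA2, the main triglyceride lipase, 16.7 to 28.4. The label of adipocytes was thus met by some of its markers and not by ADIPOQ, PLIN1, LEP and RETN. Stromal genes were abundant, with VIM at 2602 to 4729 and COL1A1 at 526 to 969. Of 10 tested adipocyte markers, CFD and FABP4 were called higher and 0 lower. FABP4, a carrier of fatty acids, had 1.01, 0.822 and 0.176 on day 4 and 5.996, 1.74 and 2.68 on day 8 (1.34, SE 0.24, adjusted p = 0.00063), and the call was lost without BF-8d replicate 1 (0.96). In bulk libraries such as these, fewer cells of a type and less RNA per cell cannot be told apart.

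Secreted proteins of fat cells were the adipocyte list with the most called members, 5 of 14 higher and 2 lower (median 0.54). Over all tested genes, 1.78% were called higher and 1.14% lower. CFD, also known as adipsin or complement factor D, had 16.3, 18.1 and 63.2 FPKM on day 4 and 267, 237 and 337 on day 8 (3.33, SE 0.36, adjusted p = 3.11e-06). AGT, the precursor of angiotensin, had 14.1, 30.2 and 32.4 on day 4 and 108, 87.4 and 88.9 on day 8 (1.93, SE 0.21, adjusted p = 4.28e-06). APOE, which carries lipid out of cells, had 7.47, 4.24 and 2.91 on day 4 and 23.7, 26.2 and 19.4 on day 8 (2.10, SE 0.22, adjusted p = 2.36e-06). These 3 genes were called with only the 12 BF libraries and without any single library. RARRES2, the chemerin precursor, had 1.69, 1.14 and 0.325 on day 4 and 3.44, 3.81 and 4.72 on day 8 (1.33, SE 0.23). NAMPT rose by 1.21 but was called in 2 of the 6 leave-one-out fits (adjusted p = 0.0439 without BF-8d replicate 2). APOA1 and ENPP2, the enzyme autotaxin, fell by 1.42 and 1.25 on the log2 scale. APOA1 was called in 1 of the 6 fits (-0.88 without BF-4d replicate 2), and ENPP2 in 2 (-0.88 without the same library). The count for the list was 8 without BF-4d replicate 3.

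The remaining lists of adipogenesis and lipid handling had few called members, beside 1.78% of all tested genes called higher and 1.14% lower. Of 25 adipogenic transcription factors, 2 were called lower and 0 higher: GATA2, known as an inhibitor of fat cell formation, and ID2, a partner that keeps other helix-loop-helix factors from binding DNA. GATA2 had 25.2, 34.7 and 9.76 FPKM on day 4 and 4.88, 6.33 and 6.67 on day 8 (-1.64, adjusted p = 0.00335), and ID2 had 216, 203 and 220 against 87.4, 98.4 and 123 (-1.06, adjusted p = 0.00424). Each was called in 2 of the 6 leave-one-out fits, GATA2 with an adjusted p of 0.0291 without BF-4d replicate 2 and ID2 with 0.02 without BF-8d replicate 1. The count for the list was 5 without BF-4d replicate 3 and 0 without BF-4d replicate 1. HILPDA, a lipid droplet protein, was the called member of 14 genes of droplet coat and lipolysis (1.33), and its call was kept in 1 of these fits, the lowest value being 0.995 without BF-4d replicate 2. Of 20 genes of fatty acid uptake and activation, 2 were called higher, ACSL5 and FABP4, and 1 lower. ACSL5, which activates fatty acids, had 14.2, 13.0 and 13.5 on day 4 and 21.7, 47.1 and 32.2 on day 8 (1.19, SE 0.17, adjusted p = 8.23e-05), and its call was lost without BF-8d replicate 2 (0.92). LPL, which frees fatty acids outside the cell, had 176, 313 and 178 against 611, 276 and 381 and was not called (0.90, adjusted p = 0.308). Members of triglyceride assembly (17), beta-oxidation and peroxisome (27) and the citrate cycle and oxidative phosphorylation (34) were tested with 0 called, with medians of -0.01, -0.12 and -0.24.

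Retinoid genes changed in both directions, with 3 of 19 called higher and 2 lower, against 1.78% and 1.14% of all tested genes. CYP26B1, which breaks down retinoic acid, had 25.9, 29.5 and 50.6 FPKM on day 4 and 129, 129 and 145 on day 8 (1.95, SE 0.23, adjusted p = 9.87e-06). CRABP2, which carries retinoic acid to its receptor, rose by 1.48 and was called in 1 of the 6 leave-one-out fits (1.14, adjusted p = 0.0373 without BF-4d replicate 3). ALDH1A1, which makes retinoic acid, had 196, 125 and 67.0 on day 4 and 23.2, 49.98 and 44.1 on day 8 (-1.64, SE 0.29, adjusted p = 0.000551). The other 2 called members were RARRES2, given above, and TGM2, a transglutaminase induced by retinoic acid, which fell by 1.39 on the log2 scale and was called in 2 of the 6 fits, with 0.97 as its smallest fall.

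Of the insulin-like growth factor (IGF) family, 3 of 14 members were called lower and 0 higher, against 1.14% of all tested genes called lower. IGFBP7 had 27.8, 38.1 and 28.2 FPKM on day 4 and 8.69, 9.58 and 8.83 on day 8 (-1.68, SE 0.19, adjusted p = 8.13e-06) and kept its call in each fit that left out a library. IGF1 itself had 327, 175 and 62.1 on day 4 and 37.4, 55.9 and 37.8 on day 8 (-1.81, SE 0.43, adjusted p = 0.00551). Its call was lost without BF-4d replicate 1 (-1.26, adjusted p = 0.0446), BF-4d replicate 2, BF-8d replicate 1 or BF-8d replicate 3. IGFBP4 had 476, 445 and 197 on day 4 and 114, 117 and 104 on day 8 (-1.63, adjusted p = 0.00593) and was called in 1 of the 6 fits (-1.40, adjusted p = 0.0395 without BF-4d replicate 1). For both genes BF-4d replicate 3 lay between the other day 4 libraries and day 8. The list had 4 called members without BF-4d replicate 3 and 1 or 2 without any other single library.

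Glycolysis had 2 of 20 members called higher and 0 lower, with a median of 0.36, against 1.78% of all tested genes called higher. ENO2, an enolase, had 2.97, 3.91 and 8.03 FPKM on day 4 and 32.7, 12.5 and 25.8 on day 8 (2.04, SE 0.33, adjusted p = 0.000268). PFKFB3, which makes the activator of phosphofructokinase, had 3.22, 3.48 and 24.5 against 17.1, 48.5 and 27.5 (1.91, SE 0.45, adjusted p = 0.00545), and its call was kept in 2 of the 6 leave-one-out fits (1.46, adjusted p = 0.0431 without BF-4d replicate 1). GAPDH had 1641 to 2282 on day 4 and 2311 to 2456 on day 8 and was not called (0.30). Hypoxia-inducible genes had 2 of 22 called higher, HILPDA and NDRG1, and CA12, a carbonic anhydrase, lower. CA12 had 234, 133 and 38.8 on day 4 and 27.3, 22.5 and 27.1 on day 8 (-2.02, SE 0.39, adjusted p = 0.00128). NDRG1 had a log2 fold change of 1.004 and was called in 2 of the 6 fits. The core ACGTG of the hypoxia element stood in the promoter window of 10 of 20 glycolysis genes and 11 of 22 hypoxia-inducible genes (50% of each) and in 22.3% of all promoters.

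Further lists had between 0 and 5 called members. Contractile and myofibroblast genes had 4 of 23 called lower and 0 higher: TGFBI, an adhesion protein induced by TGF-beta, had 61.8, 45.0 and 35.9 FPKM on day 4 and 10.3, 7.66 and 11.7 on day 8 (-2.14, SE 0.36), CCN1 had -1.54 (SE 0.24), and TGFB3 and ITGA11 had -1.152 and -1.005. TGFB3 was called in 1 and ITGA11 in 2 of the 6 leave-one-out fits (adjusted p of 0.0245 without BF-4d replicate 3 and 0.0188 without BF-4d replicate 2). Collagens and matrix had 1 of 37 higher, FBLN5 (1.38), and 2 lower, FBLN1 (-1.72) and THBS2 (-1.08). The 1 higher member is near the 1.78% of all tested genes called higher, and 1.14% of them were called lower. FBLN5 and THBS2 kept their calls in 2 of the 6 fits each (adjusted p of 0.0223 without BF-4d replicate 1 and 0.0352 without BF-4d replicate 2), and without BF-4d replicate 3 there were 7 called members. TIMP1, an inhibitor of metalloproteinases, had 154, 242 and 550 against 646, 901 and 617 (1.37, SE 0.31) and was called in 3 of the fits (0.96 without BF-4d replicate 1). PTGIR, the prostacyclin receptor, had 0.979, 1.90 and 1.62 on day 4 and 8.18, 11.7 and 8.39 on day 8 (2.06, SE 0.18, adjusted p = 2.05e-07).

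Of 14 complement genes, CFD, SERPING1 and CFB were called higher and 0 lower, against 1.78% of all tested genes called higher. SERPING1, an inhibitor of the first complement component, rose by 1.27 and CFB, factor B, by 1.16. SERPING1 was called in 2 and CFB in 3 of the 6 fits, and without BF-8d replicate 2 they had 0.96 (adjusted p = 0.0566) and 0.92 (adjusted p = 0.025). Of 23 genes of the insulin and FOXO response, 1 was called higher, CITED2 (1.26, SE 0.20), and 3 lower: SESN1 and GADD45A, given above, and PDK4, which restrains glucose oxidation (-1.34). PDK4 was called in 1 of the 6 fits (-0.86, adjusted p = 0.0643 without BF-4d replicate 2). Glucocorticoid targets had 1 of 15 higher, ERRFI1 (1.299, 3 of the 6 fits), and 1 lower, DUSP1, a phosphatase of MAP kinases that had 164, 136 and 122 FPKM on day 4 and 53.5, 64.3 and 55.5 on day 8 (-1.26, SE 0.22, adjusted p = 0.000566). Without BF-4d replicate 3 the insulin and FOXO list had 6 called members and the glucocorticoid list 5. ATF3 was the called member of 26 genes of the amino acid and endoplasmic reticulum stress response (1.77, 2 of the 6 fits, 1.22 at its lowest), and this list depended on the same library: 7 were called without it, and the median went from 0.17 to 0.54. The mean log2(FPKM + 1) of the list was 5.71 in BF-4d replicate 3, above the other day 4 libraries (4.43 and 4.32) and those of day 8 (4.97 to 5.23). HSPA5, a chaperone of the endoplasmic reticulum, had 351, 350 and 2249 FPKM on day 4 and 817, 671 and 798 on day 8 and was not called. The cAMP response (21) and the antioxidant genes (29) had 0 called, against 4 each without BF-4d replicate 3.

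The list of the study's own candidates held 31 genes, a part of those it names for both depots and mostly subcutaneous ones. The study chose them on these samples, so that they are no independent evidence. Of 29 tested, 7 were called higher and 5 lower, against 18 called in all without BF-4d replicate 3 and 5 without BF-4d replicate 1. AGT, CYP26B1, ENO2, FABP4 and JAK2 (given above) and CCDC180 (1.298) were among those higher, and IGF1, APOA1, ENPP2, PTPRN and LPCAT2 (-1.02) lower. CCDC180 and LPCAT2 were called in 2 of the 6 leave-one-out fits each, with 0.85 and -0.78 without BF-8d replicate 2. CAT (catalase) had 128, 115 and 30.2 FPKM on day 4 and 35.5, 26.02 and 35.4 on day 8 and was not called (-1.23, adjusted p = 0.033). PCK1, which feeds the glycerol part of triglycerides, had 245, 217 and 54.7 against 49.0, 22.4 and 64.3 and was not called (-1.76, adjusted p = 0.122). SOAT1, which esterifies cholesterol, had 36.6, 27.3 and 19.7 against 12.6, 10.99 and 12.3 (-1.12, adjusted p = 0.0335), with each day 8 library below each day 4 library. In CAT and PCK1, BF-4d replicate 3 lay within the range of day 8.

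Among the largest falls, RGS5 is also a pericyte marker and PTPRN a candidate of the study, and the others stand in none of the lists. SLC6A5, a glycine transporter, had 17.5, 25.1 and 3.10 FPKM on day 4 and 0.442, 0.371 and 0.480 on day 8 (-3.13, SE 0.56, adjusted p = 0.000715). NET1 (chr10:65428013-65438346), an exchange factor for RhoA, had 138, 130 and 63.4 on day 4 and 15.8, 10.3 and 14.8 on day 8 (-2.87, SE 0.41, adjusted p = 8.77e-05). ADAMTS9 (chr13:46033753-46209238), a secreted protease of the matrix, had 29.8, 16 and 21.6 on day 4 and 3.57, 3.78 and 3.92 on day 8 (-2.26, SE 0.23, adjusted p = 1.79e-06). Each of the 3 kept its call without any single library. RGS5, a regulator of G protein signals, had 32.6 ± 22.3 FPKM (SD, n = 3) on day 4 and 3.43 ± 2.70 on day 8, without overlap (-2.82, SE 0.47). PEG10, an imprinted gene, had 121, 58.6 and 35.0 against 10.96, 14.6 and 11.4 (-2.27, SE 0.36), and NPTX1, a secreted pentraxin, 18.9, 18.2 and 3.89 against 1.28, 1.80 and 1.38 (-2.32, SE 0.36). LRIG3 had -2.26 (SE 0.43). ECEL1, CHRDL2 and PTPRN had -2.80, -2.74 and -2.28 but were called in 2, 4 and 2 of the 6 fits, each with its highest adjusted p without BF-4d replicate 1 (0.0314, 0.017 and 0.0314).

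Of the called genes that the rule names, 19 were called in the fit on all 24 libraries, in that on the 12 BF libraries and in every fit that left out a compared library. Higher on day 8 were RSAD2, CFD, DPP4, CRYAB, APOE, PTGIR, CYP26B1, AGT, TYROBP and NOTCH3. Lower were HMGCS1, HSD17B7, IDI1, SQLE, CYP51A1, IGFBP7, GADD45A, ADAMTS9 and NET1. DPP4 (chr15:68661764-68742961), a surface peptidase of fat progenitors, had 1.41, 1.89 and 2.16 FPKM on day 4 and 12.4, 13.2 and 14.5 on day 8 (2.36, SE 0.16, adjusted p = 5.13e-09), the smallest adjusted p among these genes. It had 16.9 ± 1.10 FPKM (SD, n = 3) before induction, above its day 8 mean of 13.4 ± 1.04. DPP4 was the called member of 15 tested stromal and preadipocyte markers, of which 5 had a positive fold change (median -0.17). CRYAB (chr9:39638505-39643530), a small heat shock protein, had 5.57, 7.14 and 6.96 on day 4 and 31.4, 37.5 and 39.5 on day 8 (2.30, SE 0.25, adjusted p = 3.24e-06), against 55.07 ± 10.52 (SD, n = 3) in BF-0d. When the 6 compared libraries were fitted alone, the 4 genes called were DPP4, CRYAB, CSPG4 and a gene without a symbol, and 4154 genes had an unadjusted p under 0.05 there.

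**Figure D4:**
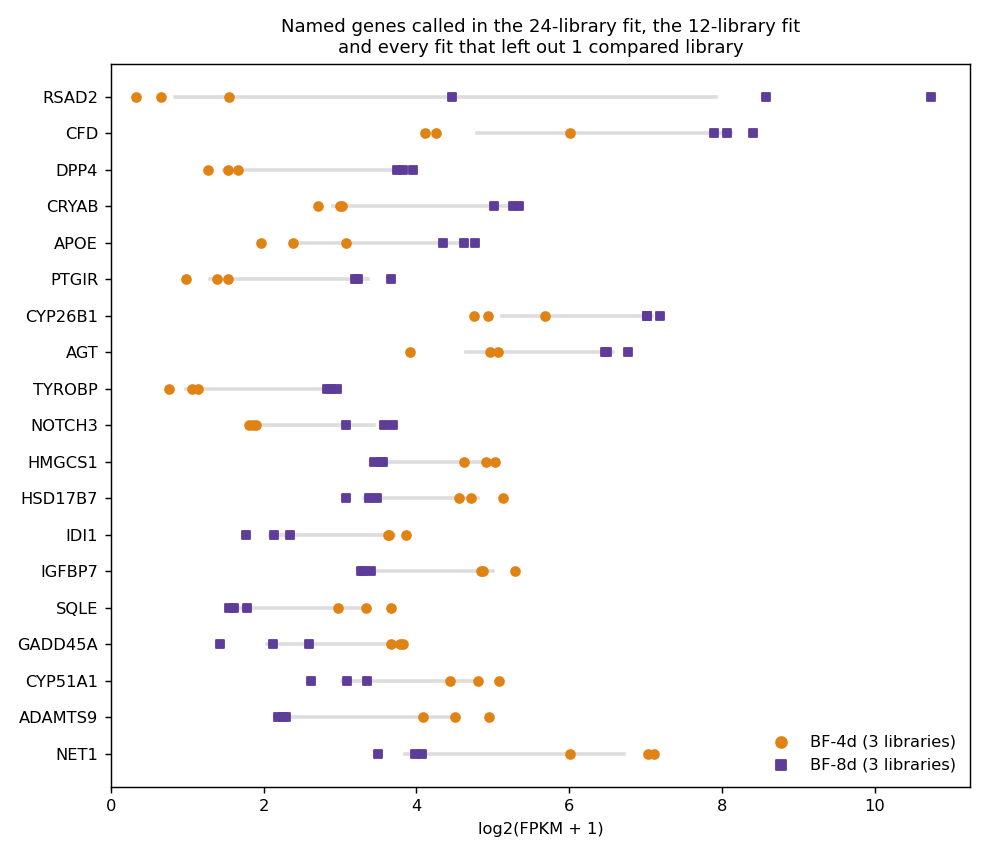
FPKM as log2(FPKM + 1) in BF-4d (orange circles) and BF-8d (purple squares), 3 libraries each, for the 19 named genes called in the fit on all 24 libraries, in the fit on the 12 BF libraries and in each fit that left out 1 compared library. In 10 genes the day 8 libraries lie to the right of the day 4 libraries and in 9 to the left, and RSAD2 has the widest spread within day 8.

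Markers of other cell types were also measured. Of the 11 immune markers, PTPRC, CD3E, LYZ, CD163 and CSF1R reached at most 0.0563 FPKM in any of the 6 libraries. CD14, a receptor for bacterial lipopolysaccharide, was the highest, with 2.87, 2.10 and 17.1 on day 4 and 5.996, 10.7 and 8.69 on day 8, and was not called (0.62, adjusted p = 0.305). TYROBP, an adaptor of immune receptors, was the called member of the 5 tested, with 1.20, 1.09 and 0.695 on day 4 and 6.397, 6.14 and 6.76 on day 8 (1.91, SE 0.26, adjusted p = 6.08e-05). Its day 8 values did not follow the order of the interferon-stimulated genes. Myogenic (2 tested) and endothelial (3 tested) markers had 0 called, and DES, the muscle filament, stayed at or below 0.0885. Of 8 pericyte markers, NOTCH3 and CSPG4 were called higher and RGS5 lower. NOTCH3 had 2.73, 2.63 and 2.496 on day 4 and 11.99, 7.42 and 10.9 on day 8 (1.596, SE 0.17, adjusted p = 3.32e-06). CSPG4 had 0.976, 1.20 and 0.936 against 5.65, 5.93 and 6.59 (1.79, SE 0.38) and was called in 4 of the 6 fits (adjusted p = 0.0128 without BF-8d replicate 3). TUBB3, of the neural list, fell by 1.18 on the log2 scale in 7 tested genes and was called in 2 of these fits.

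The depots were compared to ask where the change from day 4 to day 8 was particular to the subcutaneous cells. In IMF cells 1169 genes (7.25%) were called over the same days, and the change differed between the depots for 1031 genes (6.39%). The 472 genes called in BF cells held 132 that were also called in IMF cells (28% of the BF calls and 11.3% of the IMF calls): 67 were higher and 31 lower in both, 33 were lower in BF and higher in IMF, and 1 was higher in BF and lower in IMF. The difference between the depots was itself called for 224 of the 472, of which 131 were higher and 93 lower in BF cells.

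The interferon-stimulated genes had the largest of these differences. The difference was called for 31 of the 37, each with the larger change in BF cells, and their median log2 fold change in IMF cells was -1.22 with 0 called. The IMF libraries of days 0, 2 and 4 had a mean log2(FPKM + 1) of 4.05 to 4.73 for these genes and those of IMF-8d 2.96 to 3.24, so that the IMF-4d libraries stood above the BF-4d libraries (1.33 to 2.51). On day 8, BF replicate 1 (3.004) lay within the IMF-8d range, and BF replicates 2 and 3 (6.92 and 5.71) lay above it. RSAD2 had a log2 fold change of 7.08 in BF and -2.10 in IMF cells, a difference of 9.18. Of the 22 chemokines and cytokines, 10 were called higher in IMF cells and 4 in BF cells. The difference between the depots was called for some of them, larger in BF for 2 and smaller for 7. CXCL8, a neutrophil attractant, had 1.54 in BF and 7.01 in IMF (difference -5.47), and IL6 had 1.21 and 4.89 (difference -3.68). The IMF levels were the lower ones on both days. Mean FPKM of CXCL8 went from 3100 to 3995 in BF and from 0.872 to 239 in IMF cells. For IL6 it went from 1097 to 2300 in BF and from 25.9 to 793 in IMF cells. CCL5 rose in both depots (3.59 in BF and 3.89 in IMF), whereas CSF2 had 4.11 in BF and 0.15 in IMF, a difference that was called.

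Of the 29 sterol genes, 17 were called lower in IMF cells (median -1.14), against 11 in BF cells, and the difference between the depots was called for 4. HSD17B7 was 1 of these, with -1.49 in BF and 0.92 in IMF cells. CFD (3.33 in BF, 3.66 in IMF), CYP26B1 (1.95 and 2.15) and PEG10 (-2.27 and -2.69) also changed in both, and their differences were not called. AGT rose in both and by more in IMF cells (1.93 and 4.16, difference -2.24, called). Glycolysis genes had 16 of 20 called higher in IMF cells against 2 in BF cells, and the difference was called for 10. Of all 16135 tested genes, 672 were called higher in IMF cells and 288 in BF cells. ENO1, with GAPDH the most abundant member, had mean FPKM of 463 in BF-0d, 1651 in BF-4d and 1585 in BF-8d. Its IMF means were 595 on day 4 and 1581 on day 8. GAPDH had 847, 1952 and 2376 in those BF groups and 1055 and 3183 in IMF cells. Several genes that fell in BF cells rose in IMF cells: SLC6A5 (-3.13 and 3.36), RGS5 (-2.82 and 3.60), TNFRSF9 (-2.14 and 4.11) and PENK (-1.44 and 4.09). In BF cells their means had been 0, 0.0481, 0 and 0.138 FPKM on day 0 and 15.2, 32.6, 8.63 and 4.78 on day 4. They had thus risen in BF cells before they fell. In IMF cells their means were 0.0151, 4.755, 0.01185 and 3.36 FPKM on day 4 and 9.61, 69.6, 16.9 and 73.65 on day 8. TNFRSF9, a receptor of the TNF family, had 8.05, 13.0 and 4.79 FPKM on day 4 and 0.819, 1.36 and 0.9999 on day 8 in BF cells. PENK, the precursor of enkephalins, had 5.79, 6.31 and 2.25 against 1.32, 0.892 and 0.850, and its BF call was kept in 2 of the 6 fits (adjusted p = 0.0183 without BF-4d replicate 2).

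**Figure D5:**
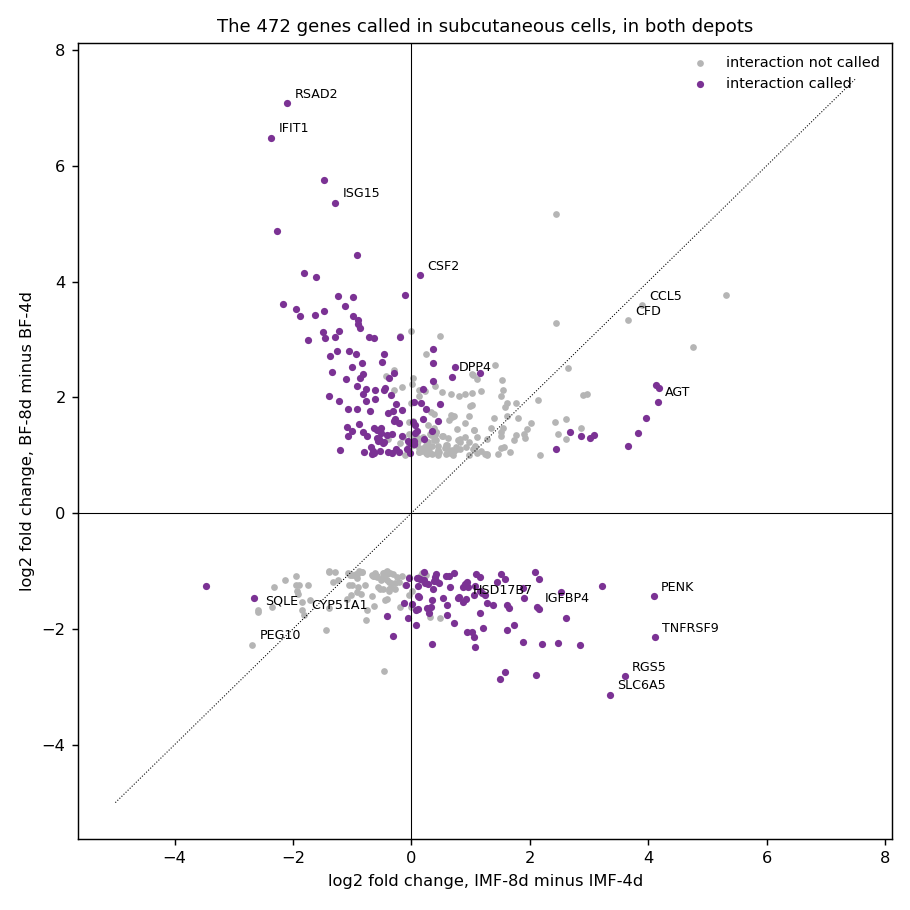
Log2 fold change from day 4 to day 8 in IMF cells (horizontal) and BF cells (vertical) for the 472 genes called in BF cells; purple points are genes whose change differed between the depots by the interaction test (224), and the dotted line marks equal change. Interferon-stimulated genes such as RSAD2, IFIT1 and ISG15 lie high and left, CFD and CYP51A1 near the line, and SLC6A5, RGS5, TNFRSF9 and PENK low and right.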

How the data were processed

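RNA libraries of polyadenylated RNA were analysed from the FPKM that the authors deposited, 1 value per gene and library. The authors aligned paired reads with HISAT2 to Sscrofa11.1 and quantified transcripts with StringTie 1.3.4d; the submitters' processing notes also list DESeq2 1.6.3, which needs counts and was not run here. The low FPKM did not fall on multiples of 1 read (12 of 585 genes, or 2.05%, in the fullest bin), so that the read counts behind a value could not be recovered and no counting interval is given. Genes with a summed FPKM above 1 over the 24 libraries were tested, 16135 of 25462, of which 2715 were assembled by the authors. A model with 1 mean per depot and day (8 groups) was fitted to log2(FPKM + 1) in limma 3.58.1 (R 4.3.3; eBayes with trend and robust) over all 24 libraries, two-sided, with Benjamini-Hochberg adjustment over all tested genes. The pseudocount of 1 understates the change of low genes. The spread of replicates differed between groups (median SD on the log2 scale 0.158 in BF-4d, 0.121 in BF-8d, 0.0888 in IMF-4d and 0.139 in IMF-8d), for which fits on fewer libraries and with array weights were alternatives, beside other filters, scalings and pseudocounts, a replicate block and the leaving out of each library. The script was tested on simulated data. Symbols came from a table of gene names (14815 genes matched) and promoters from the RefSeq annotation of Sscrofa11.1. An exact 0 can be a failed estimate.

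The members and gene lists were chosen with earlier results of these data known. Named were the listed candidates of the study, PPARG, CEBPA, ADIPOQ and PLIN1. Also named were the 10 largest rises and the 10 largest falls among called genes. These had a symbol, 1 FPKM or more on average on the higher day, and no overlap of the days. In each list, up to 6 called members with the smallest adjusted p and up to 2 with the highest FPKM were named. Genes called also in the fits on 12 and 6 libraries (at most 10) were added, as were the 5 largest differences between depots in each direction. Members of a list named beside them to complete its count or its pathway were chosen after their values were seen. Some called members of the lists are not reported here by name.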

Additional observations from a re-analysis of the deposited data

Results flagged for a closer look

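The change from day 4 to day 8 differed between subcutaneous and intramuscular cells, by the interaction test of limma, for 1031 genes. Among genes also called in subcutaneous cells, the largest differences (BF change minus IMF change on the log2 scale) were positive for the interferon-stimulated genes RSAD2 (9.18), IFIT1 (8.85), MX2 (7.23), IFIT2 (7.14) and ISG15 (6.65). They were negative for SLC6A5 (-6.49), RGS5 (-6.42), TNFRSF9 (-6.25), PENK (-5.53) and PTPRN (-5.13). In the first 5 genes the day 8 values of BF replicates 2 and 3 were far above that of replicate 1. The part of these libraries in the differences was not tested beyond the settings given in the report. Groups of 3 libraries were not searched for outlying values.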

How the results depend on the processing

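Of the 472 genes called from BF-4d to BF-8d (288 higher, 184 lower), the count changed with the libraries fitted and the pseudocount. A pseudocount of 0.1 gave 916 (513 and 403), the 12 BF libraries alone 101 (63 and 38), and the 6 compared libraries alone 4 (3 and 1). BF-8d replicate 1 as the only day 8 library, added after the values were seen and with its spread taken from the other groups, gave 152 (94 and 58). Leaving out each compared library gave 295 to 832 (179 to 474 higher and 114 to 358 lower). The counts with array weights (420), eBayes without trend and robust (457), no filter (407), a mean of at least 1 FPKM (490), median ratio scaling (506) and quantile normalization (499) were within 1.5 times of 472, but the share called higher was 75.1% with median ratios and 68.9% with quantiles against 61%. For the genes whose change from day 4 to day 8 differs between BF and IMF (1031), BF-8d replicate 1 as the only BF day 8 library gave 542 (171 higher and 371 lower in BF), and leaving out a library gave 808 to 1207. Of 103 named called genes, 90 kept the call with median ratio scaling, 100 with the pseudocount of 0.1, 20 with the 12 BF libraries and 3 with the 6, and 0 reversed in these 4 settings. The causes were not tested.

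Deviations from the day means correlated at 0.103, -0.187 and 0.0965 for the same replicate numbers, and not every library correlated best with its own number. With 3 libraries on each day, such correlations cannot tell whether the numbers pair the libraries. A fit with the replicate number as a block called 455 genes (276 higher, 179 lower) and found 963 genes whose change from day 4 to day 8 differs between BF and IMF.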

Other observations

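Several called genes lay beside each other. Among the 365 called genes with coordinates, 30 neighbouring pairs were less than 50000 bases apart, and 27 of these pairs changed in the same direction. The same count over all tested genes is not given here, and pairs such as MX1 and MX2 or OAS1 and OAS2 are family members. No clustering is read from these counts. HES4, a transcription factor of the Notch pathway, lies 6510 bases from ISG15 and had a log2 fold change of 3.06, and AGRN, on its other side at 1805 bases, had 1.28. RSAD2 and CMPK2 are 5585 bases apart, with 7.08 and 4.07. Some neighbours went opposite ways: ZBP1 had 3.34 and PMEPA1, 13169 bases away, -1.65. On the mitochondrial genome, COX2 and ATP8 had -1.03 and -1.10. These genes were chosen after their values were seen.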
